A study of Rattus norvegicus with 12 samples.

Results

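The genes followed here encode the machinery of mitosis and the spindle, 40 genes chosen by symbol for their roles: mitotic cyclins and their kinase, other mitotic kinases, the spindle checkpoint, the chromosomal passenger complex, centromere and kinetochore proteins, spindle motors, cytokinesis proteins, the anaphase-promoting complex (APC/C) and its targets, 2 transcription factors, and the proliferation markers Mki67 and Top2a. Of these, 39 were measured in both genotypes, among 19414 genes listed for control and 18834 for NFAT5KO cells. Ccnb2 (cyclin B2) was not listed under this symbol in either genotype, and only its promoter window is counted below. RNA-seq was done on UMR-106 cells, an osteoblast-like line from a rat osteosarcoma, in 12 libraries that form 4 groups of 3 biological replicates. Control and NFAT5KO cells were each kept for 24 h with 20 mM less NaCl (-NaCl) or 20 mM more NaCl (+NaCl) than normal medium. The difference was 40 mM, and every group received 1 nM calcitriol, the active form of vitamin D. No group was kept in normal medium, so a decrease in +NaCl and an increase in -NaCl cannot be told apart. Words such as higher, lower, rose and fell compare +NaCl with -NaCl alone. The NFAT5KO cells were made with CRISPR-Cas9 and grown from a single cell, so what this clone lacks and what else sets it apart cannot be told apart.

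Cells that divide make the proteins of mitosis in waves: transcripts of cyclin B1, CDK1, the Aurora kinases and the kinetochore rise in G2, and the APC/C then destroys many of the proteins at anaphase. Many of these genes share a promoter element called CHR (cell cycle genes homology region), which is bound by the MuvB core, a complex that represses with DREAM in resting cells and activates together with B-Myb and FoxM1 in G2. A culture therefore holds more or less of these transcripts according to how many of its cells are cycling and where in the cycle they stand, and in bulk libraries fewer cells of a kind and less RNA per cell cannot be told apart. NFAT5 is the transcription factor that responds to tonicity and binds an element called TonE.

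Promoter windows from RefSeq (build GRCr8, 250 bases before to 50 after the start of the gene) were found for 33 of the 40 genes, in 34 windows. Ccna2, Aurkb, Incenp, Tpx2, Racgap1, Ube2c and Foxm1 had no entry. The 6 windows below are shown because they belong to genes whose values are given for every library and hold both CHR letters and a CCAAT box, the element bound by NF-Y. With +NaCl, Cdk1, Top2a and Ttk passed the test as lower in control cells, Pttg1 did so in NFAT5KO cells, and Mki67 and Plk1 did so in neither, while no difference between the genotypes was called by limma for any of the 6. Capitals mark CHR letters (TTTGAA or TTCGAA, and TTCAAA, the other strand of the first) and CCAAT boxes (CCAAT, or ATTGG on the other strand), and each run reads 5′ to 3′ along the gene.
Cdk1: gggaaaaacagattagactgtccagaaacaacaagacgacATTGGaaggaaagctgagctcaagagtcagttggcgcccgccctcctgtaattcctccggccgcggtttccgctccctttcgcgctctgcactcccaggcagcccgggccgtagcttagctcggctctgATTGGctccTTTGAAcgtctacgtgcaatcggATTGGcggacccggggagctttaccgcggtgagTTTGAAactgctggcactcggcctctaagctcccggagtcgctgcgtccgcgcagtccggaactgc
Top2a: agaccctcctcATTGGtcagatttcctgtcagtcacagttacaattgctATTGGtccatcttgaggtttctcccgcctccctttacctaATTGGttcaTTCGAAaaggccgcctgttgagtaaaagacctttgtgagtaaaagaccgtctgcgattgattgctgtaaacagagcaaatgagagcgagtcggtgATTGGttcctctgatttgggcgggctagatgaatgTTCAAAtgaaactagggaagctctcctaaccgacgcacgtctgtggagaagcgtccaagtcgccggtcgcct
Ttk: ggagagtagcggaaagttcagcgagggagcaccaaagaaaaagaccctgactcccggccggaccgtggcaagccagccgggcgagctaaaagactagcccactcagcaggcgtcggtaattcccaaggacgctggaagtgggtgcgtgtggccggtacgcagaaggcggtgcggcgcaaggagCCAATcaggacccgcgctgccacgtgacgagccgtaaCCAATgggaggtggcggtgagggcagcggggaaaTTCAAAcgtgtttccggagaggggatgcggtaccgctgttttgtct
Pttg1: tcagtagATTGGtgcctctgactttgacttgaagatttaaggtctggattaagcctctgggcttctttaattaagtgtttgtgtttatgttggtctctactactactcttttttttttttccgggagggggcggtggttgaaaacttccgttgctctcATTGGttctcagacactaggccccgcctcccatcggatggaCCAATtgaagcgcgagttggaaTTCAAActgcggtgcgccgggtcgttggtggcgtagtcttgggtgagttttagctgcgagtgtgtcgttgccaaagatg
Mki67: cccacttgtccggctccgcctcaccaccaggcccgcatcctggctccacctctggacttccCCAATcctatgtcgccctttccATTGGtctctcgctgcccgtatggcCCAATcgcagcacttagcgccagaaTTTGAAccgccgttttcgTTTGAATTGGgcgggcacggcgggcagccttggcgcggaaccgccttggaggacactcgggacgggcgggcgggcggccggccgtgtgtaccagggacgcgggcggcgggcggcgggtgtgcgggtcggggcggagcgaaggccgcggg
Plk1: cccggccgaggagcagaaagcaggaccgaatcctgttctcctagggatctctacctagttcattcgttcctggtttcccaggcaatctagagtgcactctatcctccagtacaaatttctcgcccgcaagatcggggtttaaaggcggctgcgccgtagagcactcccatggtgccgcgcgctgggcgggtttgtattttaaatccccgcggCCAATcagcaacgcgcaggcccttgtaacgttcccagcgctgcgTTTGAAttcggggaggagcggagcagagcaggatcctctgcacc

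The Cdk1 window lies at chr20:19265043-19265342 on the plus strand and that of Top2a at chr10:84473044-84473343 on the minus strand. The Ttk window is chr8:93634389-93634688 on the plus strand, Pttg1 is at chr10:28406277-28406576 on the minus strand, Mki67 is at chr1:199952544-199952843 on the minus strand and Plk1 is at chr1:186147408-186147707 on the plus strand. Counted from the start of the gene, CHR letters began at -72 and -16 in Cdk1, at -152 and -22 in Top2a, at 5 in Ttk, at -29 in Pttg1, at -117 and -99 in Mki67 and at 7 in Plk1. From the last CCAAT box that ended before it, the CHR match nearest the start lay 33 bases on in Cdk1, 35 in Top2a, 34 in Ttk, 22 in Pttg1, 43 in Mki67 and 44 in Plk1, counted between first letters. Over the 19 members whose window held both in this order the median was 35 bases, with a range of 9 to 205.

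Over the 34 windows, CHR letters on either strand were present in 24, or 70.6%, against 19.7% of all 33469 rat promoter windows of the same length. Nearly all of these, 23, had them close to the start: 67.6% of the windows held CHR letters from 100 bases before to 50 bases after the start, against 8.86% of all windows. A CCAAT box was present in 70.6% against 37.5%, 2 or more boxes in 52.9% against 11.2%, and CHR letters together with a CCAAT box in 55.9% against 7.95%. The 33 windows of DNA replication genes, which are transcribed earlier in the cycle, held CHR letters in 18.2% and a CCAAT box in 63.6%.

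Letters of E2F, the factor of the G1 to S transition, gave the opposite order. Any of GGCGGGAA, TTTGGCGC or TTTCCCGC on either strand was found in 1 of the 34 windows, 2.94%, against 54.5% of the replication windows and 2.9% of all windows. The first and the last of these can overlap on opposite strands. The forkhead letters TGTTTAC were present in 2.94% of the windows against 3.78% of all, and TonE in 0 of the 34 against 5.98% of all. These are letter matches in short windows, and they describe the genes without showing which factor bound them.

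**Figure D1:**
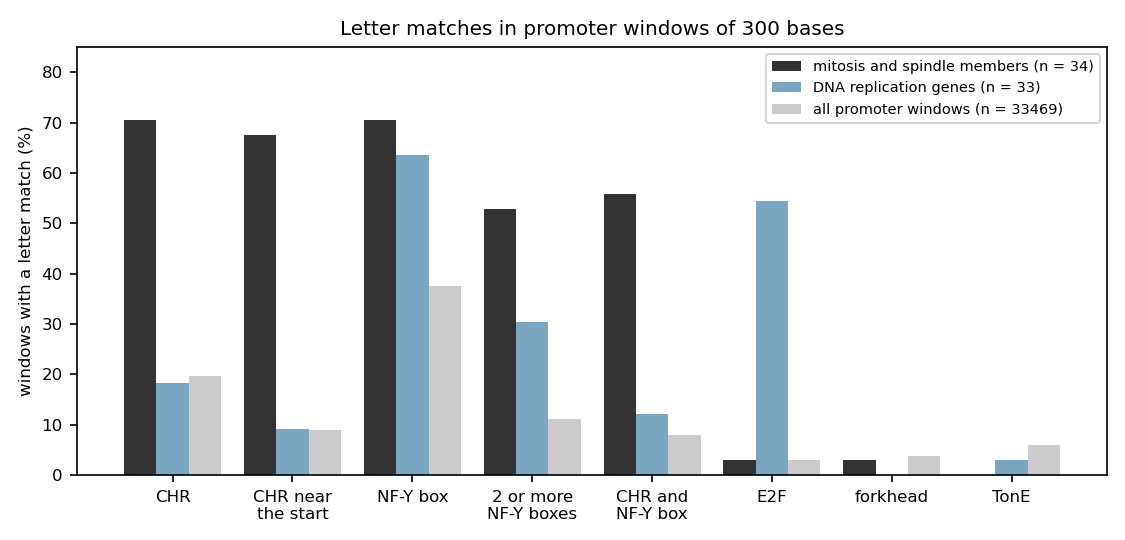
Share of promoter windows with a letter match (vertical axis, percent) for 8 elements or combinations, in the 34 windows of mitosis and spindle genes (black), 33 windows of DNA replication genes (blue) and all 33469 windows (grey). NF-Y box stands for CCAAT. CHR near the start, from 100 bases before to 50 after it, was present in 67.6% of the mitosis windows against 9.09 and 8.86%, whereas E2F letters were present in 54.5% of the replication windows.

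Sequencing gave 14267946 to 22798804 recovered reads per library. The deposited value of a gene is its normalized count, the reads divided by 1 factor per library within the table of its genotype, and all folds are on the log2(normalized count + 1) scale, +NaCl over -NaCl, with the standard error (SE). A gene is called higher or lower where the adjusted p of limma, over all genes tested, was below 0.05. The Nfat5 transcript averaged 2805 ± 118 (SD, n = 3) normalized counts in control cells with -NaCl and 4361 ± 188 with +NaCl, and in RPM, recovered reads per 1000000 of the library, the NFAT5KO libraries held 0.296 of the control level with -NaCl and 0.332 with +NaCl. In NFAT5KO cells Nfat5 was still higher with +NaCl, by 0.80 (SE 0.10, adjusted p = 8.5e-04). The study itself reported a complete knockout by immunoblot. Its qRT-PCR detected no Nfat5 mRNA in these cells, and it saw no effect of +NaCl there. Transcript counts do not measure the protein, and why the RNA results differ was not tested. Osteoblast markers summed to 3895 to 6854 RPM, and of the chondrocyte, adipocyte, leukocyte, endothelial and muscle lists, only the chondrocyte list exceeded 1.77 in any library, with 23.9 to 46.5. On the first principal component of the NFAT5KO table, -NaCl replicate 1 lay at -9.56, between its fellow replicates at -47.2 and -32.4 and the +NaCl libraries at 23.9 to 39.8, so counts for NFAT5KO cells are also given without it.

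In control cells, mitosis genes were lower with +NaCl: 23 of 39 were called lower, while 12.7% of all 17108 genes tested were, and 1 was called higher (Cenpe), with 13.3% of all genes. Their median log2 fold change was -0.18, against 0.00 for all genes, with a range of -0.56 to 0.16. The changes were small, and the strongest, in Mybl2, left 67.9% of the -NaCl level. At an unadjusted p below 0.05, 28 were lower and 1 higher, with 18.4% and 18.5% of all genes. All 3 +NaCl libraries lay below all 3 -NaCl libraries in 26 of the 39 genes, with 20.1% of all genes, and above them in 1, with 20.5% of all genes.

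In NFAT5KO cells the called genes were also all lower with +NaCl. There 11 of the 39 were called lower and 0 higher, with 7.37% and 7.29% of the 16657 genes tested, and at an unadjusted p below 0.05, 17 were lower and 0 higher, with 14.9% and 14.7% of all genes. Their median was -0.12, against 0.00 for all genes, from -0.38 in Ube2c and Pttg1 to 0.11 in Foxm1. Groups did not overlap in 17 genes that were lower, with 17.2% of all genes, and in 3 that were higher (Foxm1, Kif2c and Mki67), with 17.0% of all genes. The count of 11 moved with single libraries, and so did the calls over all genes. It was 5 without -NaCl replicate 2 and 7 without either -NaCl replicate 3 or +NaCl replicate 3. Lower calls over all genes went from 1227 to 456, 544 and 765 in these fits, in the same order. The member count was 12 without the -NaCl replicate 1 that stood apart, with 1334 lower calls over all genes. Without limma's mean-variance trend 9 genes were called lower in control and 0 in NFAT5KO cells, where calls over all genes fell from 2441 to 14.

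The genotypes shared 9 genes called lower in each: Ccna2, Ccnb1, Mad2l1, Aurkb, Birc5, Cenpa, Kif23, Ube2c and Mybl2. A further 14 were called lower in control cells alone and 2, Kif20a and Pttg1, in NFAT5KO cells alone, which does not show that they differ between the genotypes. Called in neither were 13 genes: Plk1, Aurka, Bub3, Incenp, Cenpf, Kif2c, Tpx2, Prc1, Racgap1, Anln, Cdc20, Espl1 and Mki67. Whether the responses differed was tested in 1 fit of the 12 libraries, by taking the control log2 fold change from that of NFAT5KO cells. In this test 1 of the 39 genes was called higher, Foxm1, with 0.362% of the 16849 genes tested, and 0 lower, with 1.44%. At an unadjusted p below 0.05, 8 differences were positive and 1 was negative, with 5.57% and 7.45% of all genes, and the median difference over the 39 genes was 0.08 against 0.00 for all genes.

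**Figure D2:**
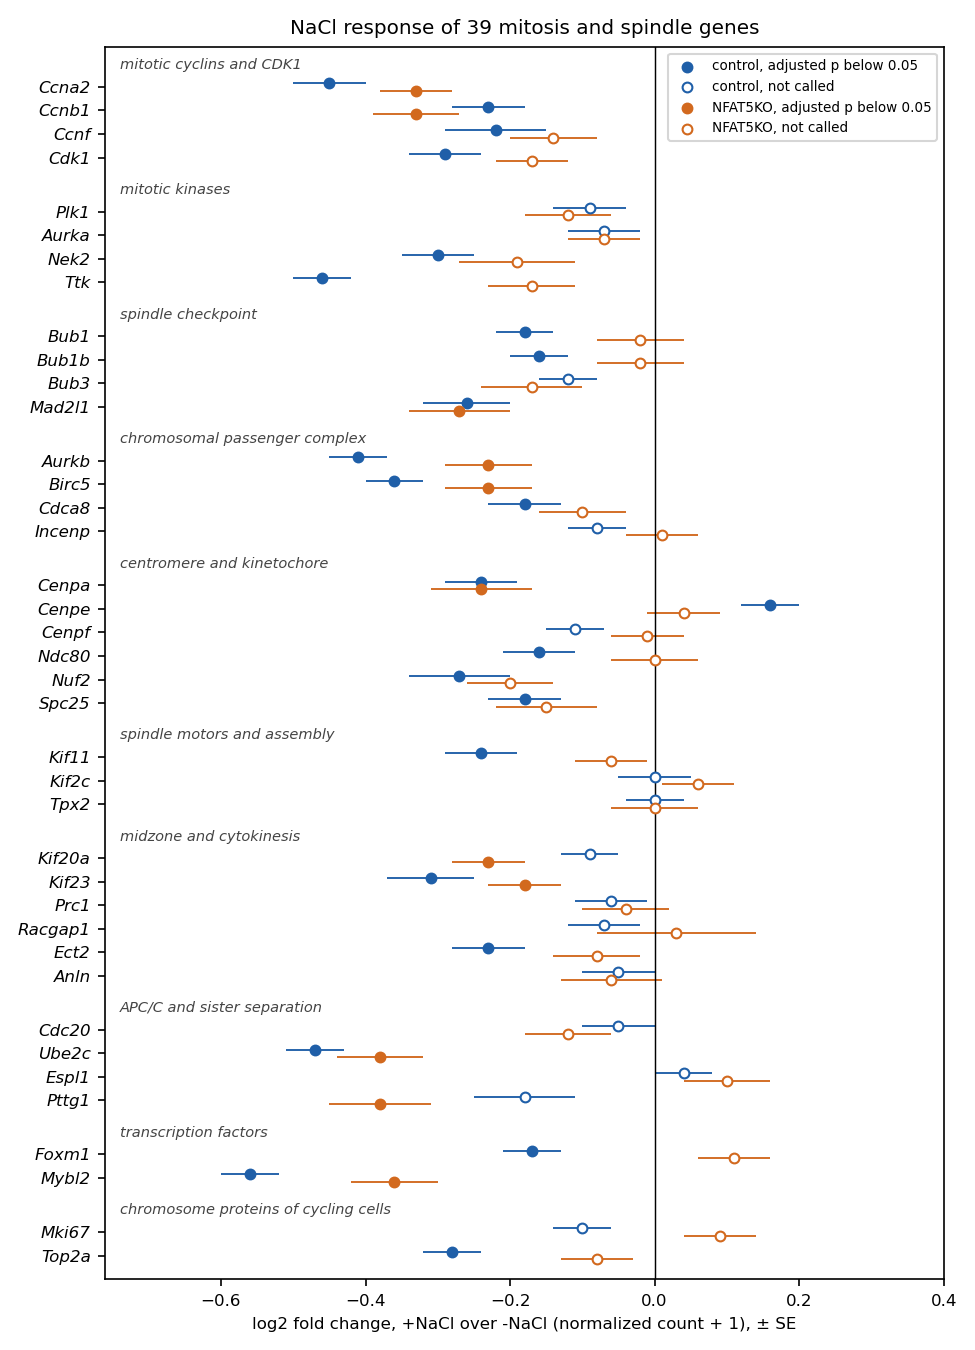
Log2 fold change of +NaCl over -NaCl (horizontal axis, ± SE) for 39 genes grouped by role, in control (blue) and NFAT5KO cells (orange), 3 libraries per group. Filled points passed an adjusted p of 0.05. Most control points lie left of 0, with Mybl2 farthest at -0.56 and Cenpe to the right at 0.16, and NFAT5KO points lie from -0.38 to 0.11.

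All 4 of the cyclins and CDK1 that were measured were called lower in control cells. Ccna2, cyclin A2, which drives S phase and G2, had normalized counts of 4589, 4559 and 4161 in control cells with -NaCl and 3283, 3338 and 3104 with +NaCl. The NFAT5KO libraries held 4534, 4986 and 4693 with -NaCl and 3814, 3797 and 3695 with +NaCl. In neither genotype did the groups overlap, and Ccna2 fell by 0.45 in control (SE 0.05, adjusted p = 6.7e-05) and by 0.33 in NFAT5KO cells (SE 0.05, adjusted p = 0.00271). The gene overlaps Exosc9 on the other strand, and since the strandedness of the counting is not given in the sources used here, reads of the pair cannot be told apart.

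Ccnb1, cyclin B1, which activates CDK1 at mitotic entry, stood at 3593, 3567 and 3196 in control cells with -NaCl and at 3085, 2910 and 2804 with +NaCl. In NFAT5KO cells it stood at 3436, 4007 and 3583, and at 2971, 2825 and 2980. Again all +NaCl libraries were below all -NaCl libraries, by 0.23 in control (SE 0.05, adjusted p = 0.00891) and 0.33 in NFAT5KO cells (SE 0.06, adjusted p = 0.00620), and the difference of -0.09 did not pass the test (SE 0.09, adjusted p = 0.726). Its kinase Cdk1 had 3841, 3739 and 3587 normalized counts against 3282, 3053 and 2838 in control cells. In NFAT5KO cells the values were 4163, 4457 and 4175 against 3967, 3786 and 3646. No groups overlapped, but only the control change of -0.29 was called (SE 0.05, adjusted p = 0.00277), the NFAT5KO value being -0.17 (SE 0.05, adjusted p = 0.0573). Ccnf, cyclin F, a ubiquitin ligase receptor that activates no CDK, changed by -0.22 in control cells (SE 0.07, adjusted p = 0.0381), a call lost on leaving out -NaCl replicate 1, -NaCl replicate 2, +NaCl replicate 2 or +NaCl replicate 3.

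Among the other mitotic kinases the members split. Ttk, the kinase at the head of the spindle checkpoint, had 2666, 2584 and 2551 normalized counts in control cells with -NaCl and 1847, 1955 and 1874 with +NaCl. NFAT5KO cells held 2804, 3076 and 2960 and then 2514, 2840 and 2505. Thus the control groups were far apart and the NFAT5KO groups overlapped, with changes of -0.46 (SE 0.04, adjusted p = 2.6e-05) and -0.17 (SE 0.06, adjusted p = 0.0892). The difference of 0.29 had the next smallest p after Foxm1 and was not called (SE 0.08, adjusted p = 0.0789), though DESeq2 called it at an adjusted p of 0.0181. Nek2, a kinase of centrosome separation, fell by 0.30 in control cells (SE 0.05, adjusted p = 0.00163).

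Plk1 and Aurka, the kinases that mature the centrosomes and build the spindle, gave no call. Plk1 had 2789, 2852 and 2734 normalized counts in control cells with -NaCl and 2821, 2432 and 2607 with +NaCl. In NFAT5KO cells the values were 2820, 2796 and 2748 and then 2584, 2403 and 2719. The control groups overlapped and the NFAT5KO groups did not, and the changes were -0.09 (SE 0.05, adjusted p = 0.239) and -0.12 (SE 0.06, adjusted p = 0.180). Aurka stood at 2257, 2248 and 2065 against 2229, 2051 and 2000 in control cells. Its NFAT5KO values were 2716, 2577 and 2666 against 2588, 2464 and 2517. Both pairs of groups overlapped, and the change was -0.07 in each genotype, with an SE of 0.05.

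**Figure D3:**
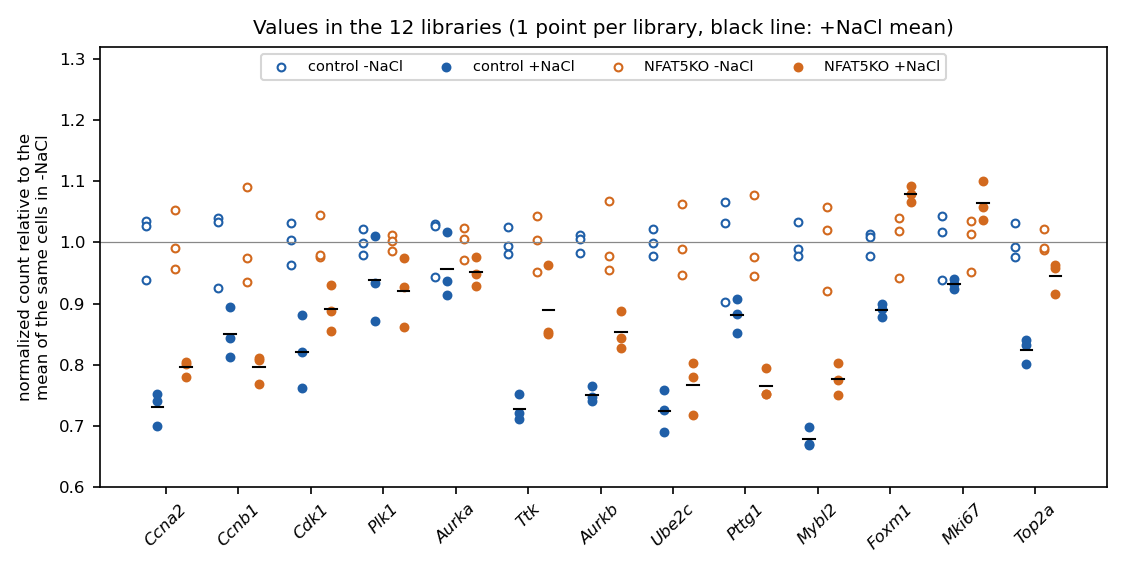
Normalized counts of 13 genes in each of the 12 libraries, divided by the mean of the -NaCl libraries of the same genotype (vertical axis, not starting at 0). Open points are -NaCl and filled points +NaCl, in control (blue) and NFAT5KO cells (orange), and black lines mark the +NaCl means. Mybl2, Ube2c, Ttk and Ccna2 fell farthest in control cells, while Foxm1 and Mki67 lie above 1 in NFAT5KO cells with +NaCl.

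The spindle checkpoint holds anaphase until every kinetochore is attached. In control cells 3 of its 4 genes were called lower: Bub1 by 0.18 (adjusted p = 0.00876), Bub1b, which encodes BubR1, by 0.16 (adjusted p = 0.0233) and Mad2l1, which encodes the APC/C inhibitor Mad2, by 0.26 (adjusted p = 0.00615). Bub3, their partner, had -0.12 (adjusted p = 0.0554). In NFAT5KO cells Mad2l1 was called at -0.27 (adjusted p = 0.0200), while Bub1 and Bub1b both had -0.02, with adjusted p of 0.887 and 0.892. The call of Bub1b in control cells was lost when -NaCl replicate 1 or 2, or +NaCl replicate 3, was left out, and that of Mad2l1 in NFAT5KO cells if -NaCl replicate 2, +NaCl replicate 1 or +NaCl replicate 3 was.

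Of the chromosomal passenger complex, which corrects faulty attachments, Aurkb is the kinase. Its normalized counts in control cells were 2949, 2931 and 2865 with -NaCl and 2230, 2158 and 2178 with +NaCl. In NFAT5KO cells they were 3408, 3810 and 3489 and then 3167, 2954 and 3013. The groups were separate in both genotypes, and Aurkb fell by 0.41 in control (SE 0.04, adjusted p = 2.9e-05) and by 0.23 in NFAT5KO cells (SE 0.06, adjusted p = 0.0212), the latter lost when -NaCl replicate 2 or 3, or +NaCl replicate 3, was left out. Birc5, or survivin, fell by 0.36 (SE 0.04, adjusted p = 1.3e-04) and 0.23 (SE 0.06, adjusted p = 0.0179), the NFAT5KO call again lost without -NaCl replicate 2 or 3. Birc5 overlaps another gene on the opposite strand, so its reads carry the same doubt as those of Ccna2. Cdca8, or borealin, fell by 0.18 in control cells (adjusted p = 0.0281, lost when -NaCl replicate 1 or 3, or +NaCl replicate 2 or 3, was left out). The scaffold Incenp had -0.08 in control (adjusted p = 0.179) and 0.01 in NFAT5KO cells (adjusted p = 0.917).

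Centromere and kinetochore genes held the single member called higher with +NaCl than with -NaCl, in control cells. Cenpe, a kinesin that carries chromosomes to the spindle equator, had 3034, 3089 and 3041 normalized counts in control cells with -NaCl and 3381, 3434 and 3426 with +NaCl. Without overlap it was higher by 0.16 (SE 0.04, adjusted p = 0.00772), against 0.04 in NFAT5KO cells (adjusted p = 0.644), where 3719, 3535 and 3570 stood against 3660, 3893 and 3597. Cenpa, the histone that marks the centromere, fell by 0.24 in both genotypes, with adjusted p of 0.00673 and 0.0368, and the NFAT5KO call held in only 1 of the 6 fits without a library, that without -NaCl replicate 1. The Ndc80 complex, which grips the microtubule, was called lower in control cells in Ndc80 (-0.16), Nuf2 (-0.27) and Spc25 (-0.18), with adjusted p of 0.0227, 0.0192 and 0.0312. The Spc25 call was lost whichever library was left out, the Ndc80 call if -NaCl replicate 2, +NaCl replicate 1 or +NaCl replicate 3 was dropped, and the Nuf2 call if -NaCl replicate 1, -NaCl replicate 2 or +NaCl replicate 3 was. Cenpf, a large protein of the outer kinetochore, had -0.11 (adjusted p = 0.0575).

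Spindle motors and assembly factors varied. Kif11, the kinesin that pushes the poles apart, fell by 0.24 in control cells (SE 0.05, adjusted p = 0.00330) and had -0.06 in NFAT5KO cells. Kif2c, a kinesin that shortens microtubules, and Tpx2, the activator of Aurora A, had 0.00 in control cells, with SE of 0.05 and 0.04. Tpx2 and Ect2 each overlap a small nucleolar RNA gene on the other strand, and Mybl2 a ribosomal RNA gene on its own strand. The groups of Kif2c nevertheless lay apart in NFAT5KO cells, higher with +NaCl in all 3 libraries, at a change of 0.06 that was not called (SE 0.05, adjusted p = 0.449).

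Of 6 genes of the midzone and cytokinesis, 2 were called lower in control cells. They were Kif23 (-0.31, SE 0.06, adjusted p = 0.00311), a subunit of centralspindlin, and Ect2 (-0.23, SE 0.05, adjusted p = 0.00511), which activates RhoA for the contractile ring. The other centralspindlin subunit, Racgap1, had -0.07 (adjusted p = 0.360). In NFAT5KO cells Kif23 fell by 0.18 (adjusted p = 0.0421, lost when -NaCl replicate 2 or 3, or +NaCl replicate 1 or 3, was left out), and Kif20a, the motor that brings Aurora B to the midzone, by 0.23 (adjusted p = 0.0131, lost without -NaCl replicate 2). Kif20a overlaps Cdc23 on the other strand. Prc1, which bundles midzone microtubules, had -0.06 and -0.04, and the ring scaffold Anln -0.05 and -0.06, although a paralogue named Anlnl1 is listed beside Anln and may share its reads.

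Of the 4 genes that act at anaphase, 1 was called lower in control and 2 in NFAT5KO cells. Ube2c, the ubiquitin-conjugating enzyme of the APC/C, had 4055, 4145 and 3970 normalized counts in control cells with -NaCl and 2943, 3076 and 2799 with +NaCl. In NFAT5KO cells it had 4979, 5593 and 5202 and then 4221, 3769 and 4099. All groups were separate, and Ube2c fell by 0.47 (SE 0.04, adjusted p = 2.9e-05) and by 0.38 (SE 0.06, adjusted p = 0.00279). Pttg1, or securin, the inhibitor of separase, stood at 973, 941 and 824 against 828, 806 and 777 in control cells. In NFAT5KO cells it stood at 957, 1056 and 926 against 736, 778 and 736. The control groups overlapped by 1 library and the NFAT5KO groups did not, with -0.18 (SE 0.07, adjusted p = 0.0802) and -0.38 (SE 0.07, adjusted p = 0.00461), and the difference of -0.20 was not called (SE 0.10, adjusted p = 0.396). Cdc20, the APC/C activator, had -0.05 and -0.12, and separase itself, Espl1, 0.04 and 0.10, none of them called.

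Both transcription factors fell in control cells, and Foxm1 was the only one of the 39 genes for which limma called a difference between the genotypes. Mybl2, which encodes B-Myb, had 4749, 4962 and 4700 normalized counts in control cells with -NaCl and 3214, 3349 and 3221 with +NaCl. In NFAT5KO cells it had 5243, 6031 and 5817 and then 4417, 4277 and 4569. The groups were separate in each genotype, with changes of -0.56 (SE 0.04, adjusted p = 3.1e-06), the smallest p of the 39, and -0.36 (SE 0.06, adjusted p = 0.00327). Foxm1 stood at 2346, 2335 and 2262 against 2081, 2064 and 2031 in control cells. Control +NaCl libraries all lay below, whereas in NFAT5KO cells the order was turned, with 2355, 2131 and 2307 against 2445, 2414 and 2474. The control change was -0.17 (SE 0.04, adjusted p = 0.0102), the NFAT5KO change 0.11 was not called (SE 0.05, adjusted p = 0.196), and the difference was 0.28 (SE 0.06, adjusted p = 0.0355). That call ended in 9 of the 12 fits that left out a library, the exceptions being control -NaCl replicate 3, NFAT5KO +NaCl replicate 2 and NFAT5KO -NaCl replicate 1, where the difference was 0.31 without the last.

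Of the markers most used to count proliferating cells, Top2a was called lower in control cells and Mki67 in neither genotype. Top2a, topoisomerase IIα, which untangles sister chromatids, had 12052, 12244 and 12727 normalized counts in control cells with -NaCl and 9887, 10360 and 10263 with +NaCl. In NFAT5KO cells it had 15348, 15396 and 15874 and then 14887, 14955 and 14238. Both pairs were separate, with -0.28 (SE 0.04, adjusted p = 2.9e-04) and -0.08 (SE 0.05, adjusted p = 0.325). Mki67, or Ki-67, which coats mitotic chromosomes, stood at 5842, 5699 and 5255 against 5265, 5221 and 5173 in control cells. In NFAT5KO cells 6545, 6145 and 6685 stood against 6832, 6697 and 7107. In the latter +NaCl was the higher group without overlap, but neither -0.10 in control (SE 0.04, adjusted p = 0.124) nor 0.09 in NFAT5KO cells (SE 0.05, adjusted p = 0.278) was called. The differences between genotypes were 0.20 for Top2a (SE 0.06, adjusted p = 0.121, and 0.0139 by DESeq2) and 0.19 for Mki67 (SE 0.07, adjusted p = 0.213).

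Read against the calls in control cells, CHR letters were about as frequent in both classes. Of the 19 genes called lower that had a window, 14 held CHR letters, and of the 12 not called, 9 did. The windows of Mybl2 and Ccnb1, both called lower, held none, nor did that of Cenpe.

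As a sum over the 39 genes, control libraries held 6937, 6895 and 6548 RPM with -NaCl and 5980, 5912 and 5798 with +NaCl. NFAT5KO libraries held 7214, 7365 and 7269 with -NaCl and 6877, 6811 and 6662 with +NaCl. Within each genotype all +NaCl libraries were below all -NaCl libraries. The tables were normalized separately, so levels across genotypes were set side by side as RPM, with no test. In this unit the median of the NFAT5KO to control ratio over the 39 genes was 1.06 with -NaCl and 1.13 with +NaCl, against 0.979 and 0.984 for all genes. The ratios ran from 0.888 in Bub3 to 1.22 in Kif2c with -NaCl and from 0.863 in Bub3 to 1.36 in Top2a with +NaCl. All 3 NFAT5KO libraries exceeded all 3 control libraries in 15 of the 39 genes with -NaCl, with 19.4% of all 12759 genes that averaged 1 RPM or more, and in 25 with +NaCl, with 23.1% of 12765. They lay below them in 5 genes in either medium, with 27.0% and 29.9% of all genes.

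Averaged over the 4 groups, per kilobase of gene model, Cdk1 stood highest at 149 RPM per kb, followed by Birc5 (137), Top2a (134), Ccnb1 (115) and Ccna2 (97.3), and Racgap1 lowest at 21.2, below Cenpa (23.8) and Ccnf (25.1). Of the transcription factors, mean levels of Foxm1 lay between 35.2 and 39.8 and of Mybl2 between 51.4 and 84.4 RPM per kb over the groups.

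**Figure D4:**
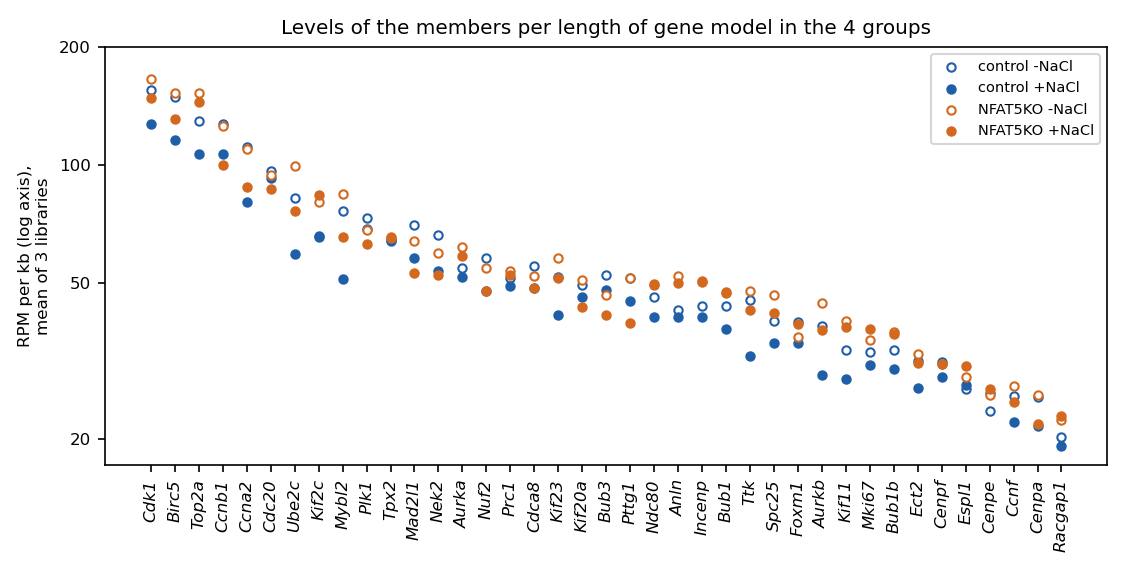
Mean RPM per kb of gene model (vertical log axis) of 39 genes in the 4 groups of 3 libraries, ordered by the mean over groups. Control is blue and NFAT5KO orange, open points are -NaCl and filled points +NaCl. Levels run from 149 in Cdk1 to 21.2 in Racgap1, and the lowest point is control +NaCl in 27 of the 39 genes.

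Other genes of the mitotic apparatus were counted the same way. The shares of all genes tested apply to each list below. They were 12.7% lower and 13.3% higher in control cells, and 7.37% lower and 7.29% higher in NFAT5KO cells. For the difference they were 0.362% higher and 1.44% lower. In control cells 18 of 30 other kinetochore genes were called lower and 1 higher, with Hjurp, the chaperone that loads the centromeric histone, at -0.51 (SE 0.05, adjusted p = 3.0e-05) and Kntc1, of the complex that recruits dynein to kinetochores, at -0.40 (SE 0.04, adjusted p = 5.7e-05). In NFAT5KO cells 6 were lower and 1 higher, and the difference was called in 3: Kntc1 (0.30, adjusted p = 0.0229), Cenpu (0.60, adjusted p = 0.0352) and Dsn1 (0.35, adjusted p = 0.0327). Among 34 other spindle and centrosome genes 14 were lower and 0 higher in control cells, and 4 and 0 in NFAT5KO cells, with the mitotic kinesin Kif15 at -0.55 (adjusted p = 6.7e-06) and -0.21 (adjusted p = 0.0782). Haus8, a subunit of augmin, which branches spindle microtubules, had -0.74 (adjusted p = 5.2e-05) and -0.34 (adjusted p = 0.0191).

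Of 18 condensin and cohesin genes, 8 were lower and 1 higher in control cells, and 0 lower and 2 higher in NFAT5KO cells. The condensin subunit Ncapg fell by 0.29 in control cells (adjusted p = 5.3e-04), and the cohesin subunit Stag1 was higher in both genotypes, by 0.31 and 0.40 (adjusted p = 6.4e-04 and 0.00166). Regulators of mitotic entry and exit were called lower in 12 of 18 in control and 4 of 18 in NFAT5KO cells, led by Cdc25b, the phosphatase that activates CDK1, at -0.52 (adjusted p = 2.3e-04) and -0.28 (adjusted p = 0.0374), and Bora, which activates Plk1 with Aurora A, at -0.50 (adjusted p = 3.4e-04) and -0.32 (adjusted p = 0.0601). Of 14 core APC/C subunits 6 were lower and 1 higher in control and 2 lower in NFAT5KO cells, with Anapc5 and Anapc15 smallest in p in control cells at -0.20 and -0.35.

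Of 11 genes of DREAM and MuvB, 3 were lower and 1 higher in control cells, and 2 lower and 1 higher in NFAT5KO cells. Its pocket proteins moved apart: Rbl1, or p107, had -0.41 and -0.24 (adjusted p = 0.00185 and 0.0297), and Rbl2, or p130, had 0.42 and 0.27 (adjusted p = 0.00289 and 0.0200). Rbl2 was the only 1 of the 11 called higher in either genotype, and a link to the mitosis genes was not tested. Tfdp2, an E2F partner, had -0.56 and -0.29 (adjusted p = 0.00259 and 0.0405).

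DNA replication genes, the other large set of cycling cells, were called lower in 33 of 38 in control cells and 16 of 38 in NFAT5KO cells, with medians of -0.32 and -0.14, and the difference was called higher in 3 (Uhrf1, Mcm10 and Tyms). Tk1, thymidine kinase, had -0.70 (SE 0.04, adjusted p = 1.2e-06) and -0.60 (SE 0.08, adjusted p = 0.00108), and Uhrf1 had -0.59 (SE 0.04, adjusted p = 3.1e-06) and -0.28 (SE 0.05, adjusted p = 0.00731). Of 6 CDK inhibitor genes tested 2 were higher and 1 lower in each genotype. Cdkn2b, which encodes the CDK4 and CDK6 inhibitor p15, was higher by 1.08 in control (SE 0.08, adjusted p = 3.1e-06) and by 0.46 in NFAT5KO cells (SE 0.11, adjusted p = 0.0145), a difference of -0.61 (SE 0.14, adjusted p = 0.0336). Its normalized counts were 411, 459.6 and 466 against 863, 957 and 1002 in control cells, and 495, 386 and 428 against 549, 673 and 580.5 in NFAT5KO cells. Cdkn1b, or p27, was higher by 0.26 and 0.32 (adjusted p = 0.00183 and 0.00440), and Cdkn3, a phosphatase that acts on CDK2, fell by 0.49 and 0.55 (adjusted p = 0.00197 and 0.0222).

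Markers of the osteoblast moved with these genes in the opposite direction. Of 10, 9 were called higher in control and 4 in NFAT5KO cells, and none was called lower. None was listed at 0, but Bglap lay near the floor, with 1.88 to 14.3 normalized counts per library, and was not called higher in control cells. Their sum ran from 3895 to 4077 RPM in control cells with -NaCl and from 6464 to 6854 with +NaCl, and from 3962 to 4577 and 5091 to 5165 in NFAT5KO cells. The part of this change in the result for mitosis genes was not tested.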

How the data were processed

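Poly-A RNA of the 12 libraries was sequenced as paired ends, and each genotype has its own table. The deposited signal is a normalized count, which the authors made from read counts with 1 factor per library, separately in each table. The aligner, the counting tool and the strandedness are not given in the sources used here. The submitters' processing notes name the mouse build mm10, whereas the identifiers are those of rat, so no gene coordinates from the tables are given. Each table is named for the other genotype than its columns carry, and the columns decided. The deposited log2 fold change, p value and adjusted p value of the authors' own +NaCl against -NaCl comparison were not used, and neither were 24 columns without a sample name. Reads were recovered from the smallest step of each library, and 100% of values were whole within 0.1 read. These reads gave the depth, levels in RPM (reads per 1000000 recovered reads) and the tests on counts.

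The main test was limma 3.58.1 in R 4.3.3 with a mean-variance trend on log2(normalized count + 1), for 17108 control and 16657 NFAT5KO genes averaging 1 normalized count or more, and for 16849 genes of both tables for the difference. P values were adjusted by Benjamini-Hochberg over all genes tested, with a threshold of 0.05. Alternatives were pseudocounts of 0.5 and 5, a minimum mean of 10 or none, equal totals, TMM, edgeR 4.0.16, DESeq2 1.42.0, no trend, a replicate block and leaving out each library. The scripts were tested on simulated data.

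The 40 genes, the lists of other genes and the tests were chosen with earlier results of these data known. Values in every library are given for Cdk1, Ccnb1, Plk1, Aurka, Mki67, Top2a, Foxm1, Mybl2 and the 4 members with the smallest p in each comparison, and for Cenpe, added after its values were seen. Outside this rule they are also given for Cdkn2b, from the list of CDK inhibitors. From each list of other genes the 2 with the smallest p in control cells are named, and Cenpu, Dsn1, Mcm10, Tyms, Rbl2, Cdkn3 and Bglap were named after their values were seen. The study describes the replicates as biological, its term for independent experiments, and p values measure the spread between these libraries. Replicate pairs of a group differed by chi-square values of 3.94 to 10.5 per gene, so none was counted as a duplicate. Sequences are from RefSeq tables, searched with Python 3.11.15.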

Additional observations from a re-analysis of the deposited data

Results flagged for a closer look

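Foxm1 stood out because its response to NaCl differed between the genotypes by a test of the difference itself. The NFAT5KO minus control log2 fold change was 0.28 (SE 0.06, adjusted p = 0.0355, limma with Benjamini-Hochberg adjustment over 16849 genes). In control cells all 3 +NaCl libraries lay below all 3 -NaCl libraries, and in NFAT5KO cells all 3 lay above. Over 22 alternatives the adjusted p of the difference ran from 0.00719 to 0.120, and it passed 0.05 in 11 of them.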

How the results depend on the processing

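No called member changed direction under the alternatives run. Of 2106 single-gene results under an alternative, 2007 stayed on their side of the threshold, 81 lost the call and 18 gained one. Without the mean-variance trend, 9 members were called lower and 0 higher in control cells, 0 lower in NFAT5KO cells and 0 higher in the difference, and calls over all genes fell from 4450 to 2763, from 2441 to 14 and from 304 to 103. DESeq2 called 3 members higher in the difference (Foxm1, Ttk and Top2a). It also called more genes over all 16849, with 139 higher in the difference against 61 by limma. With the replicate number as a replicate block, 0 members were called in the difference, 24 were lower in control and 9 lower in NFAT5KO cells. Over all genes the block gave 50 higher and 197 lower in the difference, 2204 lower in control and 1005 lower in NFAT5KO cells. Replicates of the same number did not deviate together (r of -0.0849 to 0.0505 across the groups of a genotype), so the numbers were not taken as pairs. Leaving out 1 library gave 17 to 24 members lower and 1 higher in control cells, 5 to 12 lower in NFAT5KO cells, and 0 to 1 higher in the difference. Over all genes these fits called 1580 to 2006 lower and 1693 to 2233 higher in control cells. They called 456 to 1334 lower in NFAT5KO cells and 23 to 50 higher in the difference. Medians of the members moved between -0.19 and -0.16 in control, between -0.14 and -0.09 in NFAT5KO cells and between 0.06 and 0.11 for the difference. TMM across the 12 libraries gave median NFAT5KO to control ratios of 1.09 with -NaCl and 1.15 with +NaCl, with all genes then at 1.00. The cause of these shifts was not tested. Most changes here are below 0.5 on the log2 scale with 3 libraries a group, so a gene not called is not shown to be unchanged.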
